A study of Homo sapiens with 12 samples.

Results

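The protein component of the cytosolic ribosome was followed across 12 Illumina BeadChip arrays of RNA from cells labelled A549, a human non-small cell lung cancer line. Members were taken by gene symbol alone: RPL or RPS, a number and at most 1 final A, X or L, plus the acidic stalk proteins and RPSA, with pseudogenes and the RPS6K kinases kept out. The rule found 72 genes with 119 probes, of 20046 genes with 30113 probes that carry 1 symbol in the platform annotation. Of these, 46 genes code for large-subunit proteins and 26 for small-subunit proteins. No probe named RPLP0 or RPSA was found in that annotation, so both were not analysed here.

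The study transfected the same cells with plasmids for parts of semaphorin 5A (SEMA5A), a membrane protein with guidance-cue repeats outside the cell and a short tail inside it. RNA was taken 24 h later. The 4 groups of 3 arrays carried plasmids for the inner domain of SEMA5A (SEMA5A_ICD, here ICD), its outer domain (SEMA5A_ECD, ECD), the whole protein (SEMA5A_Full, Full) or no SEMA5A (SEMA5A_Empty, the control plasmid, Empty), all with the same transfection reagent. The backbone, promoter and tags of the plasmids and the share of cells that took them up were not given in the sources used here. No source says that the 3 arrays of a group came from separate cultures, so the p-values cover the spread among these arrays alone, and that spread may be technical.

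Ribosomal proteins assemble with ribosomal RNA in the nucleolus into a small subunit, which reads the message, and a large subunit, which joins amino acids. Cells make them in near equal numbers, and free copies are mostly degraded. Their messages are among the most abundant in growing cells, and most start with a C inside a run of pyrimidines, the terminal oligopyrimidine (TOP) tract, through which mTOR and LARP1 adjust their translation and stability. A microarray measures the amount of message and says nothing of that translation.

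The starts shown are those held for the genes called against Empty below, with RPS9, RPL10A, RPS27L and RPL10L, because the TOP tract is a known feature of these messages that the symbol rule did not use. RefSeq promoter windows (GRCh38.p14) were held for 60 of the 72 genes, and each line gives 30 bases of the gene's own strand, from 10 before to 20 from the annotated start. Capitals mark a tract, defined as C at the annotated start followed by at least 4 bases that are each C or T. Only the gene's own strand was read.
RPL41, chr12:56116623-56116652, plus strand: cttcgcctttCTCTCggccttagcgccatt
RPL29, chr3:51995876-51995905, minus strand: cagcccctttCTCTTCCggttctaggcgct
RPL36A, chrX:101391001-101391030, plus strand: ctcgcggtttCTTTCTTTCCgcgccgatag
RPL21, chr13:27251548-27251577, plus strand: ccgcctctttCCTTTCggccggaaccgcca
RPL14, chr3:40457329-40457358, plus strand: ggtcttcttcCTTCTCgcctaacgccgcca
RPL28, chr19:55385922-55385951, plus strand: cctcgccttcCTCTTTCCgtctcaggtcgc
RPS13, chr11:17077648-17077677, minus strand: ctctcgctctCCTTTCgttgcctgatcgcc
RPS9, chr19:54200848-54200877, plus strand: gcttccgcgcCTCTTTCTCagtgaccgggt
RPL6, chr12:112411423-112411452, minus strand: gtatcctcagtgaatcagaaccagaaaaag
RPL6, second start, chr12:112409266-112409295, minus strand: gacggcgcgtgcactgtgttcctggtcctg
RPL10A, chr6:35468391-35468420, plus strand: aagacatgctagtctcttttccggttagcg
RPS27L, chr15:63157458-63157487, minus strand: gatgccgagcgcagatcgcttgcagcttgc
RPL10L, chr14:46651762-46651791, minus strand: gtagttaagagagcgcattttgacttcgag

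The first 8 of these starts hold a tract of 5 to 10 bases, and the last 5 hold none at the annotated position. A tract was present at 60.6% of the 71 member starts, against 4.07% of all 35116 starts in the table. Counted by gene, 43 of 60 member genes (71.7%) had a start with a tract, against 5.14% of 27305 genes. With 5 bases allowed to either side of the annotated start, the shares of genes were 83.3% and 25.2%. The tracts at member starts ran from 5 to 19 bases, with a median of 8.

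Between 18659 and 20366 of the 47323 probes were above background (detection p under 0.05) on each array. Arrays of the same group correlated at 0.988 to 0.995, and no pair of arrays held identical values. Neither of the 2 SEMA5A probes was above background on any array, including the Full arrays, so the transfected gene could not be checked here, and where these probes lie relative to the plasmid inserts was not given in the sources used here. Of 8 epithelial or A549 markers, KRT8 and KRT18 were above background on all 12 arrays, ALDH1A1 on 11 and EPCAM on 2. KRT19, CDH1, AKR1C1 and AKR1B10, each known from A549 cells, were above background on 0 arrays by their probes, which goes against the label in part. Markers of blood, vessel and stromal cells reached an intensity of at most 114, and 4 of those 7 were on 0 arrays. By its best probe, CD14 was above background on 5 arrays, DCN on 4 and PTPRC on 1. Some epithelial markers were about as dim, with highest intensities of 111.5 for EPCAM and 121 for ALDH1A1, against 170.1 for KRT18 and 634.5 for KRT8.

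Ribosomal protein messages were among the brightest on the arrays. Of the 119 probes, 64 lay in the brightest 1% of all probes and 92 in the brightest 5%, and members made up 13.5% of that brightest 1%. The mean intensity of a member probe had a median of 6184 over the 119 probes and ranged from 96.6 to 16418. For testing, 112 probes of 69 genes were above background on all 3 arrays of at least 1 group, and 110 of them were above it on all 12. Member probes also varied little between arrays of a group, with a median residual SD of 0.083 (log2) against 0.148 over all 18728 tested probes.

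The members left untested were RPL3L, RPL10L and RPL10. RPL3L, the form of striated muscle, was above background on 0 arrays, and RPL10L, known from testis, on 5 of 12 arrays without all 3 of any group. Both probes for RPL10, a subunit-joining protein, were above background on 0 arrays. RPL37, RPS27L and RPL36A each had 1 further probe that did not pass and 1 or more that did. Many ribosomal protein genes have near-identical processed copies in the genome, and the probe sequences were not used here, so signal from such copies cannot be told apart from that of the gene.

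The share of array signal held by ribosomal protein probes was slightly lower with ICD and with ECD than with Empty, and close to Empty with Full. As a share of all unscaled intensity on an array, the 119 probes took 4.94% ± 0.05 on Empty arrays, 4.74% ± 0.03 on ICD arrays, 4.62% ± 0.06 on ECD arrays and 5.03% ± 0.12 on Full arrays (SD, n = 3 each). The 3 ECD arrays gave 4.61%, 4.57% and 4.69%, and the 3 ICD arrays 4.76%, 4.76% and 4.70%. The 3 Empty arrays gave 4.89%, 4.94% and 5.00%, and the 3 Full arrays 5.10%, 4.89% and 5.10%. All ICD and ECD arrays therefore lay below all Empty and Full arrays, ECD lay below ICD on every array, and Full overlapped with Empty. With the background removed, the shares were 7.03% ± 0.17, 6.73% ± 0.07, 6.52% ± 0.09 and 7.12% ± 0.21 in the same order. In these bulk samples, fewer cells of a type and less RNA per cell cannot be told apart, and a share can also move when other messages move. The brightest probes weigh most in such a share. With the scalings described below, the 67 member probes at a log2 level of 12 or above differed little from Empty. Their quantile-normalized medians were -0.03 (ICD) and -0.02 (ECD). Under median scaling they were -0.08 and -0.06, against -0.05 and -0.04 for other probes that bright.

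**Figure D1:**
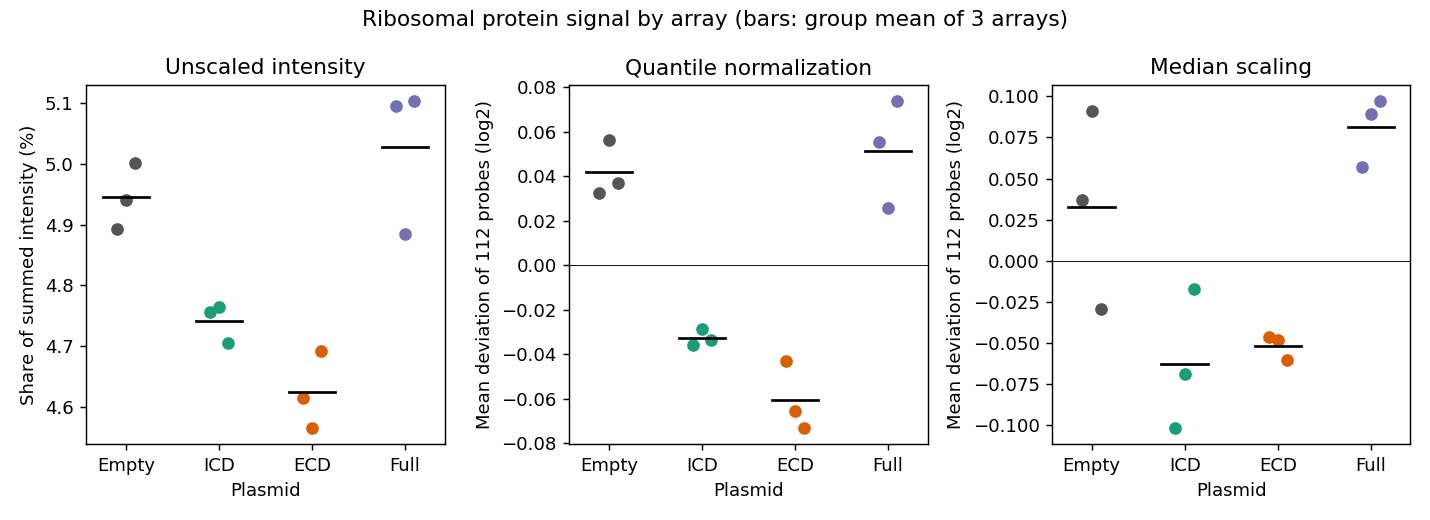
Ribosomal protein signal on each array by plasmid. Left, percent of the summed unscaled intensity held by the 119 member probes; centre and right, mean deviation (log2) of the 112 tested probes from their mean over 12 arrays under quantile normalization and under median scaling. Points are arrays and bars are means of 3; ECD and ICD arrays lie below 0 in both scaled panels, while 1 Empty array lies below 0 under median scaling.

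For the levels below, intensities were background-corrected, quantile-normalized and put on the log2 scale, and limma was fitted to all 18728 probes, with a probe called where its adjusted p was under 0.05. With ICD, the median log2 difference from Empty was -0.06 over the 112 member probes and 0.00 over all tested probes, and 83 of 112 lay below 0. With ECD the medians were -0.08 and -0.01, and 80 of 112 lay below 0. With Full they were 0.01 and 0.00, and 52 lay below 0. No member probe differed from Empty by more than 0.5 log2 units in any of these 3 comparisons.

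**Figure D2:**
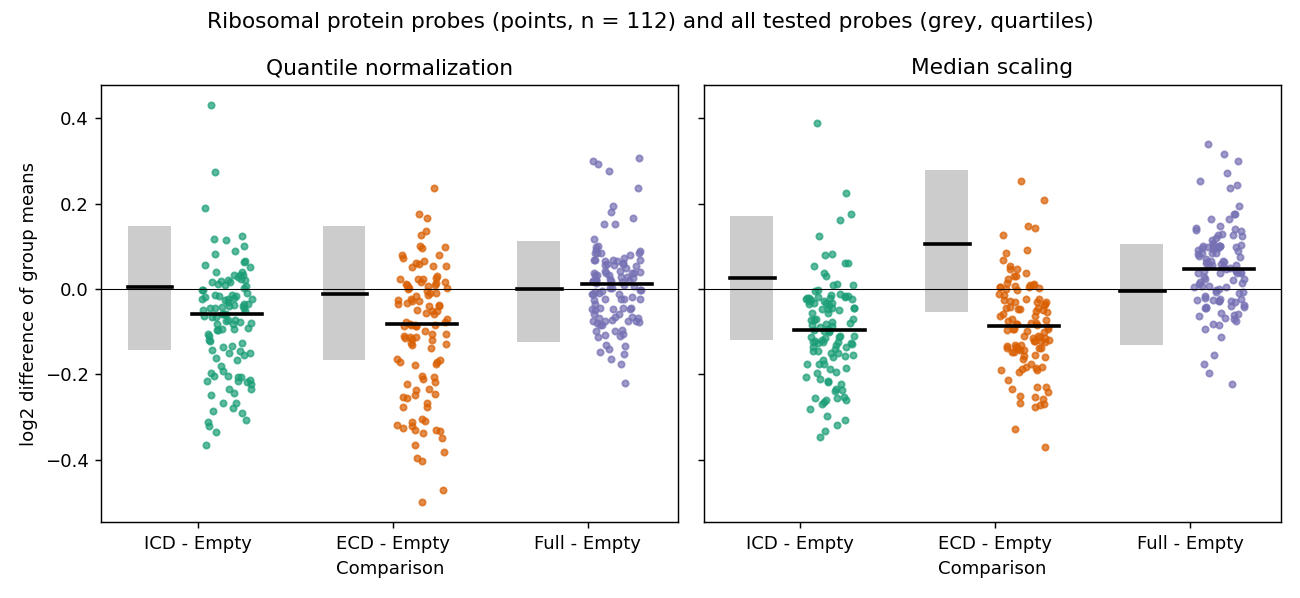
Log2 difference from Empty for the 112 tested ribosomal protein probes (points, black bar their median) beside the quartiles and median of all 18728 tested probes (grey box). Left, quantile normalization; right, median scaling. Member medians lie at -0.06, -0.08 and 0.01 on the left and at -0.10, -0.09 and 0.05 on the right.

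In ICD against Empty, 2 member probes were lower and 0 were higher, where 3.33% of all tested probes were lower and 3.19% higher. The members' share is below that background. At an unadjusted p under 0.05, 18 member probes were lower and 1 higher, against 12.0% and 12.1% of all tested probes. RPL39L, a paralogue of RPL39 that is strongest in testis, was 10.30, 10.36 and 10.25 with Empty and 10.07, 9.98 and 9.86 with ICD by probe ILMN_1712413. Its ICD and Empty arrays did not overlap, and ICD was lower by a log2 difference of -0.33 ± 0.09 (SE; limma adjusted p = 0.039). RPS13, a small-subunit protein near the subunit interface, was 12.81, 12.81 and 12.74 with Empty and 12.52, 12.47 and 12.44 with ICD. Those arrays did not overlap either, with a difference of -0.31 ± 0.09 (limma adjusted p = 0.045). Both calls were lost whenever any 1 of the 6 arrays was left out, and under median scaling.

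RPS4X, an X-linked small-subunit protein, and RPL6, a large-subunit protein, missed the threshold in ICD against Empty, at -0.32 (limma adjusted p = 0.051) and -0.31 (limma adjusted p = 0.054). The most positive by moderated t were 0.27 for RPL4, which lines the exit tunnel, 0.19 for RPS29, 0.12 for RPL9 and 0.43 for 1 RPL8 probe. Their limma adjusted p-values ran from 0.076 to 0.43. The RPS29 and RPL9 values are 1 probe of several: the RPS29 probes ran from -0.07 to 0.19 and the RPL9 probes from -0.21 to 0.12.

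In ECD against Empty, 9 member probes of 9 genes were lower and 0 were higher, where 5.56% of all tested probes were lower and 5.80% higher. All 9 belong to the large subunit, of 68 large-subunit and 44 small-subunit probes tested, and whether the subunits differ was not tested. At an unadjusted p under 0.05, 26 member probes were lower and 1 higher, against 14.4% and 13.7% of all tested probes. RPL39L was 9.81, 9.80 and 9.80 on the ECD arrays, below every Empty and ICD array. That is a log2 difference of -0.50 ± 0.09 from Empty, or 70.7% of the Empty level (limma adjusted p = 0.0032). This call held when any 1 array was left out and under median scaling (-0.37, limma adjusted p = 0.029).

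RPL41, which codes for an extremely short basic peptide, was 7.75, 7.77 and 7.71 with Empty and 7.23, 7.32 and 7.28 with ECD by its dimmer probe. The groups did not overlap, and the difference was -0.47 ± 0.11 (limma adjusted p = 0.012), a call that also held when any 1 array was left out. Under median scaling it was -0.27 (limma adjusted p = 0.097). Its bright second probe gave 13.87, 13.90 and 13.94 with Empty and 13.94, 14.00 and 13.98 with ECD, a difference of 0.07 ± 0.08 (limma adjusted p = 0.64). The RPL41 probes thus differed in sign, with only the dimmer of them called.

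RPL29, a basic protein also known to bind heparin, was 9.15, 9.27 and 9.14 with Empty and 8.76, 8.88 and 8.73 with ECD by its called probe. The difference was -0.40 ± 0.10 (limma adjusted p = 0.021), with no overlap between the groups. RPL14 was 10.11, 10.14 and 10.10 with Empty and 9.54, 9.69 and 9.91 with ECD, a difference of -0.40 ± 0.10 (limma adjusted p = 0.025). RPL14 was uneven, since ECD array 3 lay nearer to the Empty arrays than to ECD array 1.

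The other called probes in ECD against Empty differed by smaller amounts. RPL36A, a protein near the exit site for spent tRNA, was 8.03, 8.05 and 8.00 with Empty and 7.75, 7.68 and 7.66 with ECD, a difference of -0.33 ± 0.09 (limma adjusted p = 0.024). RPL21 was 11.32, 11.35 and 11.21 with Empty and 10.99, 10.93 and 10.97 with ECD, also a difference of -0.33 ± 0.09 (limma adjusted p = 0.024). In both genes the groups did not overlap. RPL6 differed by -0.33 (limma adjusted p = 0.034) and RPL28 by -0.37 (limma adjusted p = 0.039). RPL8, which lies at the peptidyl transferase centre, differed by -0.35 (limma adjusted p = 0.041) by probe ILMN_1811433; it was named after its value was seen, as the ninth called probe. None of these 5 calls, nor those of RPL29 and RPL14, held in every fit that left out 1 array.

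Positive values in ECD against Empty were small and none was called. By moderated t, the most positive were RPL4 at 0.24 (limma adjusted p = 0.095), RPL11 at 0.18 (0.23), RPL22 at 0.17 (0.31) and RPL17, a tunnel protein, at 0.14 (0.34).

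In Full against Empty, 0 member probes were called in either direction by limma, where 0.769% of all tested probes were higher and 0.304% lower. At an unadjusted p under 0.05, 4 were higher and 0 lower, against 7.12% and 7.71% of all tested probes. RPL10A, the mobile L1 stalk protein, was 10.85, 10.64 and 10.51 with Empty and 10.92, 11.04 and 10.94 with Full. Full lay above every Empty array, at 0.30 ± 0.10 (limma adjusted p = 0.18). RPL8 was 8.85, 8.89 and 8.86 with Empty and 9.12, 9.10 and 9.29 with Full, at 0.31 ± 0.10 (limma adjusted p = 0.18). RPS26, at the exit of the message channel, gave 0.28 and RPL36A 0.20. The most negative by moderated t were -0.22 for a dim RPL32 probe that was above background on 11 arrays, -0.16 for RPL6, -0.15 for RPS4X and -0.13 for RPL19.

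**Figure D3:**
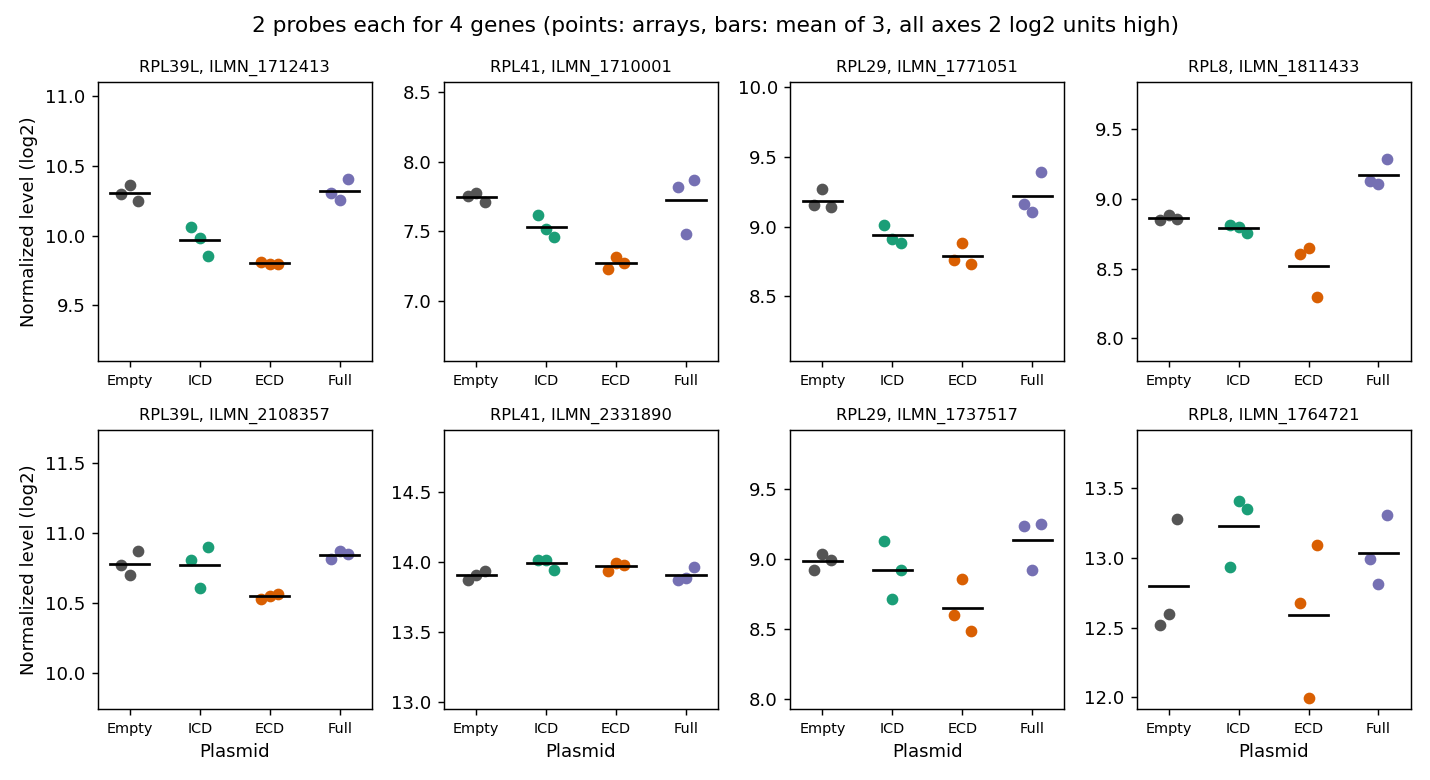
Normalized log2 levels on every array for both probes of RPL39L, RPL41, RPL29 and RPL8, with bars for the mean of 3 arrays. Axes all span 2 log2 units. ECD lies lowest by the upper probe of each gene, RPL41's lower probe stays between 13.87 and 14.02, and RPL8's lower probe spreads from 11.99 to 13.41 across arrays.

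The SEMA5A plasmids were also compared with each other, each with the fit's own test. In ECD against ICD, 0 member probes were called by limma, where 1.13% of all tested probes were higher and 0.529% lower, and 3 member probes were higher and 8 lower at an unadjusted p under 0.05, against 6.66% and 6.84% of all tested probes. The member median was -0.02 under quantile normalization and 0.01 under median scaling. Under scaling on probes detected on all arrays, described below, it was -0.14, with 105 of 112 member probes below 0. The median of all tested probes was -0.01, 0.09 and -0.06 under the same 3.

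In Full against ECD, 16 member probes of 13 genes were higher and 1 was lower, where 7.75% of all tested probes were higher and 10.0% lower. RPL8 was 8.60, 8.64 and 8.30 with ECD, below all 3 Full arrays, and the difference was 0.66 ± 0.10 (limma adjusted p = 0.0017), or 158% of the ECD level. RPL36A was 8.31, 8.17 and 8.19 with Full, above all 3 ECD arrays, and differed by 0.53 ± 0.09 (limma adjusted p = 0.0022). RPL39L was 10.31, 10.26 and 10.40 with Full, again without overlap, and differed by 0.52 ± 0.09 (limma adjusted p = 0.0027). RPL29 differed by 0.43 ± 0.10 (limma adjusted p = 0.010). Both probes of RPL29, RPL39L and RPS9, a protein at the message entry channel, were called higher.

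Single probes of RPL10A, RPL14, RPL28, RPL36, RPL41, RPS7, RPS15 and RPS26 made up the rest of the 16, with limma adjusted p-values from 0.011 to 0.041. The lower probe belonged to RPL11, which with RPL5 and the 5S RNA can bind MDM2. It was 13.14, 13.10 and 13.23 with ECD and 12.83, 12.81 and 12.91 with Full, a difference of -0.31 ± 0.09 (limma adjusted p = 0.032). The second RPL11 probe gave 0.06 (limma adjusted p = 0.70) in that comparison. Of the 17 calls, 6 held in every fit that left out 1 array, namely RPL8, RPL36A, RPL41, RPL10A, 1 RPL39L probe and 1 RPL29 probe, and 6 were also called under median scaling.

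In Full against ICD, 2 member probes were higher and 0 lower, where 1.99% of all tested probes were higher and 2.71% lower. RPL39L differed by 0.35 ± 0.09 (limma adjusted p = 0.039) and RPL8 by 0.38 ± 0.10 (limma adjusted p = 0.046). Each call held in 1 of the 6 fits that left out 1 array, and both were lost under median scaling, with the replicate block and in the fit of only those groups. At an unadjusted p under 0.05, 19 member probes were higher and 0 lower, against 11.7% and 12.7% of all tested probes. The F test over all 4 groups called 13 member probes, 11.6% of the 112, where 17.8% of all tested probes were called.

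How many members passed changed with the scaling. At most 20366 of the 47323 probes of an array were above background, so the median over all probes of an array is a background-level value, and shifting each array by it (median scaling) leaves brighter probes free to differ as a class. Under median scaling, ICD against Empty had 0 member probes lower (1.33% of all tested probes), ECD against Empty had 1 (1.13%), Full against ECD had 7 higher (1.53%), and the F test called 5 (18.4%). The 1 probe still lower with ECD was that of RPL39L, and the 7 higher in Full against ECD were 6 of the 17 above and RPL36 probe ILMN_1685088. Shifting each array by its median over the probes detected on all arrays instead gave 37 members lower in ECD against Empty (10.3% of all tested probes) and 80 higher in Full against ECD (17.8%). Those 37 were 23 large-subunit and 14 small-subunit probes, so members of both subunits were called lower at that setting.

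The median of all tested probes moved with the scaling, and the members' place relative to it moved in size. In ECD against Empty, the median over all tested probes moved from -0.01 under quantile normalization to 0.11 under median scaling and to -0.09 under scaling on detected probes. The member median was -0.08, -0.09 and -0.28 under the same 3. Relative to the median of all tested probes, members were therefore lower by a log2 difference of -0.07 under quantile normalization. Under both median scalings, which differ only by a constant per array, it was -0.19. For ICD the relative values were -0.06 and -0.12, and for Full 0.01 and 0.05. The reference is mostly dim: 18084 tested probes of other genes or none lay below a log2 level of 12, and 532 at or above it. Of the members, 45 lay below 12 and 67 at or above it. At 12 or above, the median-scaled ECD medians were -0.06 for members and -0.04 for the other probes, and below 12 they were -0.14 and 0.11. Below 12 the sets were not matched for level. Between levels 6 and 8 lay 6 members and 5861 of all probes, and between 10 and 12 lay 21 members and 1364 of all probes. The direction of the ICD and ECD medians was the same under all 3 scalings, and that of Full was above 0 in all 3.

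**Figure D4:**
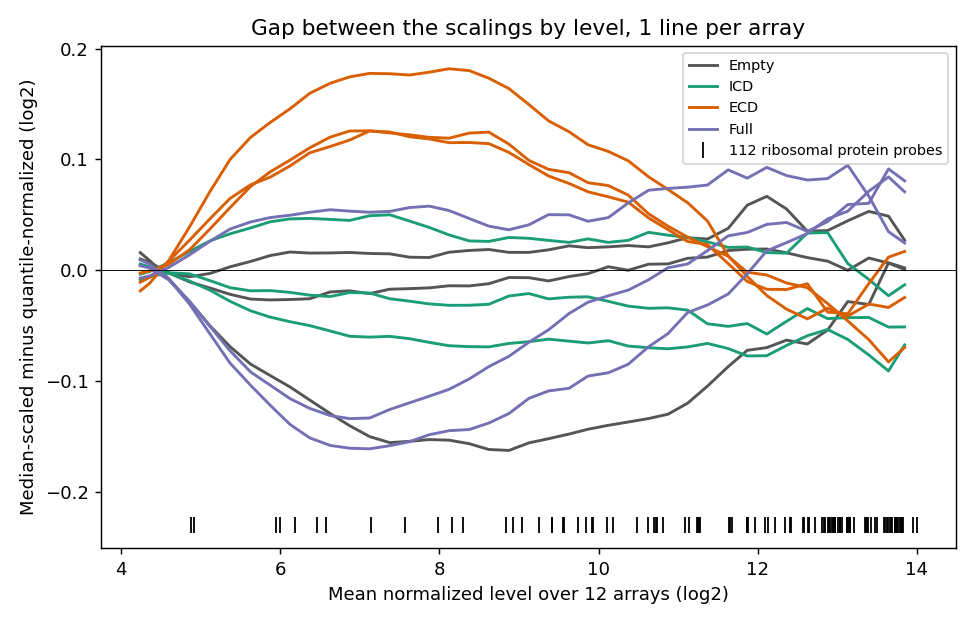
Median-scaled minus quantile-normalized level (log2) against the mean level over 12 arrays, 1 line per array, with ticks for the 112 member probes. The 3 ECD lines rise above 0.1 between levels 7 and 8 and fall below 0 near 13, where most members lie.

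Members at different levels moved by different amounts; the division at a log2 level of 12 was chosen after the values were seen. Under quantile normalization, the 67 member probes at 12 or above had a median of -0.02 in ECD against Empty with 0 called, and the 45 below 12 had a median of -0.25 with all 9 calls. Tested probes that are not members had medians of -0.01 in both level classes. Quantile normalization gives every array the same distribution, which holds the medians of such large classes near 0 by construction. Under median scaling the member medians were -0.06 and -0.14, and those of the other probes -0.04 and 0.11, with the sets below 12 not matched for level. In Full against ECD, all 16 higher calls lay below level 12, where the member median was 0.26, and the 1 lower call lay above. Calls were counted by level for members alone, so these counts show no difference from other probes of the same level. Among members, the size of the differences thus moved with brightness, which reached an intensity of 18184, and the part of brightness in the result was not tested.

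**Figure D5:**
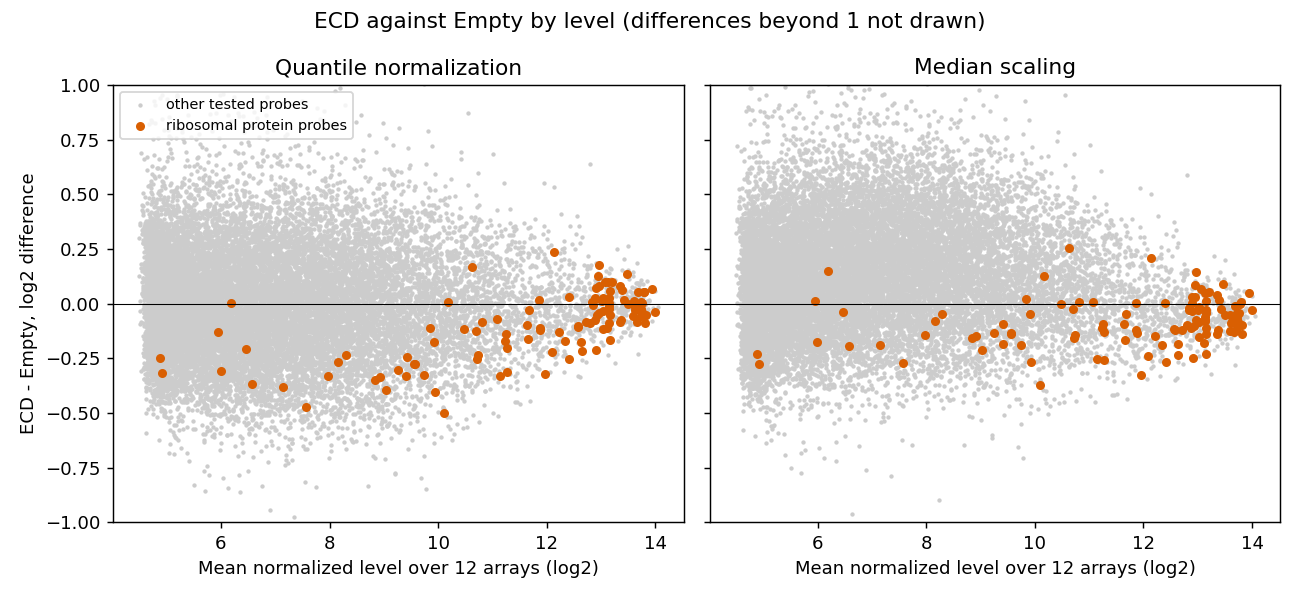
ECD minus Empty (log2) against the mean level over 12 arrays for member probes (orange) and other tested probes (grey), under quantile normalization (left) and median scaling (right). On the left, members below level 12 have a median of -0.25 and those above lie around -0.02; on the right the medians are -0.14 and -0.06.

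Without background correction, which gives the authors' deposited log2 values, more members passed. The lower calls were 11 in ICD against Empty (5.44% of all tested probes) and 21 in ECD against Empty (7.98%). The higher calls were 27 in Full against ECD (9.91%) and 12 in Full against ICD (4.50%).

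Probes of 1 gene often differed. Of 31 genes with more than 1 tested probe, all probes had the same sign in 17 in ICD against Empty, in 17 in ECD against Empty and in 21 in Full against Empty. No gene had called probes of opposite sign in any of the 6 comparisons. In ECD against Empty, 6 of the 31 genes had some probes called and 0 had all. The second RPL39L probe gave -0.24 ± 0.09 (limma adjusted p = 0.12), the second RPL29 probe -0.34 ± 0.13 (0.10), and the RPS9 probes -0.32 and -0.31 (0.064 and 0.058). The RPL14 probes ran from -0.40 to -0.11 and the RPL6 probes from -0.33 to -0.03. The second RPL8 probe, ILMN_1764721, was 12.52, 12.59 and 13.28 with Empty and 12.68, 11.99 and 13.09 with ECD. These groups overlapped, and the SE of the difference was 0.25.

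The functional subgroups of the ribosome held few probes. The 6 probes of the stalk proteins RPLP1, RPLP2 and RPL12, which recruit elongation factors, had 0 calls in all 6 comparisons. Of all tested probes, 0.304% to 10.0% were called per direction in these comparisons, so 0 calls among 6 probes says little about the stalk. RPLP2 was 13.73, 13.75 and 13.77 with Empty and 13.79, 13.78 and 13.85 with ECD, at 0.05 ± 0.08. RPLP1 had values from 12.89 to 13.79 over its 3 probes. RPL5 differed from Empty by 0.00 (ICD), 0.03 (ECD) and -0.11 (Full), with limma adjusted p-values of 0.63 or above. RPL13A, known for a separate role in silencing inflammatory messages, differed from Empty by -0.03 (ICD), -0.03 (ECD) and -0.07 (Full). RPS27L, a p53-responsive paralogue, was 11.33, 11.40 and 11.24 with Empty and 11.17, 11.14 and 11.14 with ECD, at -0.17 ± 0.09 (limma adjusted p = 0.26).

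The 62 tested probes of genes with a tract at the start had a median of -0.06 in ECD against Empty with 6 lower calls. The 35 of genes without one had a median of -0.09 with 1 lower call, where 5.56% of all tested probes were lower. Some genes counted as without a tract have one nearby, since 43 member genes held it at the annotated start and 50 within 5 bases. Whether these classes differ was not tested. In ICD against Empty the medians were -0.05 and -0.06. The start window was not held for the genes of the other 15 probes.

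Of 7 tested probes for FAU, RPL7L1, RPL26L1 and RPL36AL, 1 was lower in ECD against Empty, RPL26L1 at -0.45 ± 0.10 (limma adjusted p = 0.012; 0.10 under median scaling). The mitochondrial ribosomal proteins, a separate set that translates mitochondrial messages, had 105 tested probes. By limma, 10 of these were lower and 1 higher in ICD against Empty (3.33% and 3.19% of all tested probes), 13 lower and 2 higher in ECD against Empty (5.56% and 5.80%), and 0 were called in Full against Empty. Their medians were -0.13, -0.13 and 0.01, and MRPL43 was lowest by adjusted p in both, at -0.79 and -0.63. Under median scaling 4 were lower and 1 higher with ICD (1.33% and 1.98% of all tested probes), and with ECD the calls turned to 1 lower and 4 higher (1.13% and 13.1%). Their ECD median was then 0.02, while that of the cytosolic members was -0.09. In Full against ECD, 25 mitochondrial probes were higher and 2 lower under quantile normalization (7.75% and 10.0% of all tested probes), with a median of 0.20. Under median scaling 1 was higher and 4 lower (287 and 3501 of all 18728), with a median of 0.06. In Full against ICD, 9 were higher and 1 lower under quantile normalization (1.99% and 2.71%), and 4 and 1 under median scaling (93 and 206 of all 18728).

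A further list held 18 other genes known for TOP messages, both translation factors and genes such as HNRNPA1, NPM1, NACA and BTF3. Of its 35 tested probes, 7 were lower and 2 higher in ECD against Empty (5.56% and 5.80% of all tested probes). In ICD against Empty 3 were lower and 1 higher (3.33% and 3.19%). Under median scaling the ECD calls were 1 lower and 2 higher (1.13% and 13.1% of all tested probes). The ICD calls were then 3 lower and 1 higher (1.33% and 1.98%). BTF3, part of the nascent chain complex, was lower with ECD and with ICD, at -0.46 (limma adjusted p = 0.011) and -0.56 (0.0052). The other 2 lower ICD calls were HNRNPA1 probes, at -0.75 (limma adjusted p = 0.0083) and -0.69 (0.0085). PABPC1, which binds poly(A) tails, was higher with ECD at 0.40 (limma adjusted p = 0.0084). Of 58 tested ribosome biogenesis probes, 4 were higher and 0 lower in ECD against Empty, where 5.80% and 5.56% of all tested probes were called. They included both named MYC probes, a transcription factor known to drive ribosomal genes, at 0.52 (limma adjusted p = 0.0062) and 0.40 (0.033), and HEATR1 at 0.35 (0.020). Under median scaling 14 of the 58 were higher and 0 lower, where 13.1% and 1.13% of all tested probes were called. Cytosolic ribosomal proteins themselves had 0 higher calls in that comparison under either scaling.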

How the data were processed

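The authors deposited a table of non-normalized probe intensity with a detection p-value for each of 12 single-colour arrays, and log2 values. No source names the scanner software. The deposited log2 values equalled quantile-normalized log2 intensities without background correction to within 5e-09. Here, intensities were corrected with normexp from the detection p-values (limma 3.58.1, R 4.3.3, offset 16), quantile-normalized and put on the log2 scale. A probe entered where its detection p was under 0.05 on every array of some group (18728 of 47323). Group means were fitted over all 12 arrays and tested two-sided with lmFit and eBayes, with Benjamini-Hochberg adjustment over all entering probes. Every probe of a gene was kept, named by the platform annotation (30113 probes with 1 symbol, 8 with several, 17202 with none), and all 119 member probes matched a current gene entry. The number of arrays limits the precision.

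Members and gene lists were chosen with earlier results of these data known. Named probes were up to 8 called per direction with the smallest adjusted p in each comparison with Empty (where fewer than 4 were called, the 4 with the largest moderated t), up to 4 per direction between constructs, probes called under only 1 of quantile and median scaling, paralogues with a final L, RPLP1, RPLP2, RPL5, RPL11, RPL13A, members not detected, and up to 3 per other list and comparison. Replicate numbers were not used to pair the arrays in the reported fit. Deviations of same-numbered arrays correlated at -0.09 to 0.11, with 1 of 18 pairs over 0.1, and those of the 36 other pairs at -0.14 to 0.10. Such values cannot show that the arrays were unpaired. The fit was checked on data with known answers. Alternatives were background correction, offset, scaling, probe choice, detection filter, variance model, array weights, groups in the fit, a replicate block and leaving out each array. Sequences came from RefSeq (GRCh38.p14); figures were drawn with matplotlib 3.10.9.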

Additional observations from a re-analysis of the deposited data

How the results depend on the processing

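The ICD and ECD member medians were below 0 under all 14 settings apart from leave-one-out fits and in every leave-one-out fit, and Full against Empty had 0 calls in all of them. Counts of called member probes moved with most settings, and the cause was not tested beyond the construction of each setting. Calls over all tested probes moved too. In ECD against Empty, 5.56% of all tested probes were lower as reported, 7.98% without background correction and 1.13% under median scaling. A change in a member count is therefore not by itself a change relative to all tested probes. The order here is ICD and ECD against Empty, then Full against ECD, Full against ICD and the F test. The reported counts of 2, 9, 17, 2 and 13 became 12, 22, 28, 12 and 31 without background correction (with 2 in ECD against ICD). They became 0, 1, 7, 0 and 5 under median scaling, and 0, 1, 4, 0 and 3 without scaling. With 1 probe per gene, which tests 69 probes, they were 1, 4, 7, 0 and 5, and the ECD median was -0.040.

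Median scaling moved the ICD and Full medians to -0.096 and 0.048, and no scaling to -0.087 and 0.051. Scaling on probes detected on all arrays gave 37, 80, 6 and 54 calls in ECD against Empty, Full against ECD, Full against ICD and the F test. The 37 lower and 80 higher calls stood beside 10.3% and 17.8% of all tested probes. The 6 higher calls stood beside 535 of all 18728. It gave medians of -0.139, -0.282 and 0.080 for ICD, ECD and Full. Among the named probes, it also turned the sign of RPL11 (-0.053) and RPL17 (-0.10) in ECD against Empty and of RPL11 in Full against ECD (0.0038). Over all 112 member probes, 2 lay above 0 in ECD against Empty at that setting, against 32 under quantile normalization.

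For ICD, ECD, Full against ICD and the F test, offset 50 gave 7, 21, 11 and 28 calls, the intensity trend 8, 21, 11 and 29 (with 1 in ECD against ICD), array weights 5, 23, 6 and 27, and detection p under 0.01 on all arrays 5, 15, 9 and 20. Median scaling without background correction gave 7 in ICD and 9 in Full against ICD, and no filter on dim probes gave 4 and 1. Fits of only the groups compared gave 0, 14, 10 and 0 in ICD, ECD, Full against ECD and Full against ICD. The replicate block gave 0 in ICD and 0 in Full against ICD, and 8 and 16 in ECD against Empty and Full against ECD. Shares of all tested probes are not given for the settings in this paragraph, so these counts show no gain or loss relative to them.

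Leaving out 1 array gave 0 calls in ICD, 2 to 5 in ECD, 6 to 21 in Full against ECD, 0 to 7 in Full against ICD (7 without Full replicate 2) and 3 to 19 in the F test. Shares of all tested probes are not given for these fits either, so these counts show no gain or loss relative to them. The member medians were -0.07 to -0.05 for ICD, -0.09 to -0.06 for ECD and -0.01 to 0.02 for Full. The ECD count was lowest without Empty replicate 2, and Full against ECD was lowest without Full replicate 3. Over all pairs of a named probe's comparison and a setting, direction and side of the threshold were kept in 547, a call was lost in 106 and gained in 26, and the sign changed in 3. With 3 arrays a group, member probes had a median SE of 0.09, so differences of the size of the group medians were not detectable in single probes.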
